A study of Mus musculus with 27 samples.

Results

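Chemokine ligands are small secreted proteins that call leukocytes into tissues, and here they were taken as every target of the probe table whose symbol begins with Ccl, Cxcl, Cx3cl or Xcl followed by a digit. This gave 37 of the 19615 targets. The data came from liver metastases of MC38, a mouse colon carcinoma cell line, in 2-month-old C57BL/6 mice that received the cells through the portal vein. The knockdown-labelled group held 13 regions from metastases of MC38 cells carrying an shRNA against CMTM6, which is known for keeping the checkpoint ligand PD-L1 at the cell surface. The control group held 14 regions from metastases of MC38 cells with a nontargeting shRNA. All hosts were immunocompetent, and which of the study's Cmtm6 shRNAs was used for these tumours is not given in the sources used here.

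Each region was the desmin-negative segment of a chosen area, which the study took as its MC38 cells, and it was read with the GeoMx mouse whole-transcriptome panel, in which tags released from probes bound to a tissue section are sequenced. Each label covered 3 mice that are not tied to regions, so regions of 1 animal are counted here as separate samples, which makes every p-value below too small and every interval too narrow. The 2 labels had been normalized separately by the authors, so the regions were brought to 1 common median of all targets, and signal on this common scale is given below. It shows changes relative to other genes only. In a region of mixed cells, fewer cells of a type and less RNA per cell cannot be told apart.

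Chemokines are sorted by the spacing of their first cysteines into CXC, CC, CX3C and XC ligands, and each binds G protein-coupled receptors that are displayed by particular leukocytes. CXC ligands with a glutamate-leucine-arginine motif call neutrophils through CXCR2, whereas Cxcl9, Cxcl10 and Cxcl11 are induced by interferon gamma and call activated T and NK cells through CXCR3. In tumours, CC ligands such as Ccl2 are known for drawing in monocytes, and Ccl19 guides dendritic cells and T cells that carry CCR7.

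The upstream sequences of the interferon-induced pair Cxcl9 and Cxcl10, which lie 18.6 kb apart, are given first. The genes shown here and below were chosen with their values known. A link between these letters and the label differences was not tested. The 250 bases before the RefSeq start (GRCm38.p6, minus strand) are chr5:92328080-92328329 for Cxcl9 and chr5:92348890-92349139 for Cxcl10. Capitals mark matches on either strand to 3 motifs. These were GAAA, NN and GAAA in a row (the core of the interferon-stimulated response element, where N is any base), GGG, NNN and TTCC in a row (NF-kB), and TTCNNNGAA (gamma-activated site).
Cxcl9: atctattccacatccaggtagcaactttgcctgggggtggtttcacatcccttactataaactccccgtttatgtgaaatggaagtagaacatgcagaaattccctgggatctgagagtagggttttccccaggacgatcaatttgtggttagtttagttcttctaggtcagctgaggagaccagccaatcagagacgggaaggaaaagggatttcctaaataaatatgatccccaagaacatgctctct
Cxcl10: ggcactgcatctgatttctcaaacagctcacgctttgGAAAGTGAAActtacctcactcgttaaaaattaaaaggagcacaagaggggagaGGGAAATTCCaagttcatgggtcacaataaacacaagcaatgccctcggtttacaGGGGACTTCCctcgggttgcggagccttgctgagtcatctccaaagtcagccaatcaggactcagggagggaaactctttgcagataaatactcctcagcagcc
In the Cxcl10 window the response element letters begin 213 bases before the start, and the NF-kB letters begin 159 and 104 bases before it. The Cxcl9 window holds none of the 3 motifs in these exact letters, which says only that the letters are not there.

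Shorter stretches of 30 bases are shown for Ccl19, the other ligand higher in knockdown-labelled regions, and for the neutrophil ligands Cxcl1, Cxcl2 and Cxcl3, which were all at their highest in region 19, a knockdown-labelled region. They lie at chr4:42756554-42756583 (minus strand), chr5:90891164-90891193, chr5:90903792-90903821 and chr5:90786018-90786047 (plus strand), with the same meaning of the capitals.
Ccl19: ttttgggacaGAAAGTGAAAgctcaaggca
Cxcl1: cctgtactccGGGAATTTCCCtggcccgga
Cxcl2: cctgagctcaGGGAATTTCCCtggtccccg
Cxcl3: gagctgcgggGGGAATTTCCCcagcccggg
The Ccl19 stretch holds the same response element letters as Cxcl10, 208 bases before its RefSeq start, at a place that lies inside the longer GENCODE gene model (chr4:42754525-42756577). In the 3 neutrophil ligands the same 11 letters appear 71, 97 and 73 bases before the start, where the NF-kB motif overlaps its own match on the other strand. Among the 26 ligands with a promoter entry, 3 held the response element core (Ccl19, Cxcl10 and Cxcl14), 7 the NF-kB letters (also Ccl1, Ccl9 and Ccl20) and 2 the gamma-activated site (Ccl17 and Cxcl14). Among all 32851 promoters of the same length these letters were present in 2.98%, 4.65% and 7.02%. The 26 ligands had 32 promoters and were counted per gene, so their counts are not directly comparable with these per-promoter shares. A match is a description of sequence and not a shown binding site.

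The label check came before the ligands. Cmtm6 signal was 417, 607 and 722 in the lowest, median and highest knockdown-labelled region, against 511, 641 and 701 in control regions. The log2 fold change of Cmtm6 was -0.06, with an SE of 0.07 and a limma adjusted p of 0.631, so the probe did not show the knockdown relative to other genes, and the regions are called knockdown-labelled. The probe's position relative to the shRNA target is not given in the sources used here. Totals, in the steps of which nearly all values of a region were whole multiples, ran from 4223027 to 19827296 in knockdown-labelled regions and from 9977868 to 26328208 in control regions. Of 6 tumour epithelium markers 1 (Krt8) lay above the odorant receptor level described next. That level was passed by 9 of 9 fibroblast markers and 8 of 11 macrophage markers. Among the fibroblast markers, Des had a mean log2 signal of 7.78, little above the level, and Col3a1 had 13.99. Which cells made these transcripts was not tested.

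Odorant receptor genes, which serve smell and had a highest mean log2 signal of 8.85, were taken to give the level of background. A target was called above it when its mean log2 signal passed percentile 95 of these 899 genes, which was 7.60 on the log2 scale or a signal of 193. By this rule 23 of 37 ligands (62.2%) were above background, against 10903 of all 19615 targets (55.6%). Just inside stood Ccl17 and Xcl1, at mean log2 signals of 7.61 and 7.61, and just outside Ccl1 at 7.55 and Cxcl14 at 7.44. Of the 23 ligands, 13 were above the odorant receptor percentile of the region itself in all 27 regions. These were Cxcl10, Ccl2, Ccl5, Cxcl16, Ccl7, Ccl12, Ccl8, Cx3cl1, Ccl27a, Ccl19, Ccl4, Ccl25 and Ccl21a. Ccl17 passed the region's own percentile in 14 regions and Xcl1 in 12. The share of all targets that passed in all 27 regions was not counted, so the 13 cannot be set against it.

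**Figure D1:**
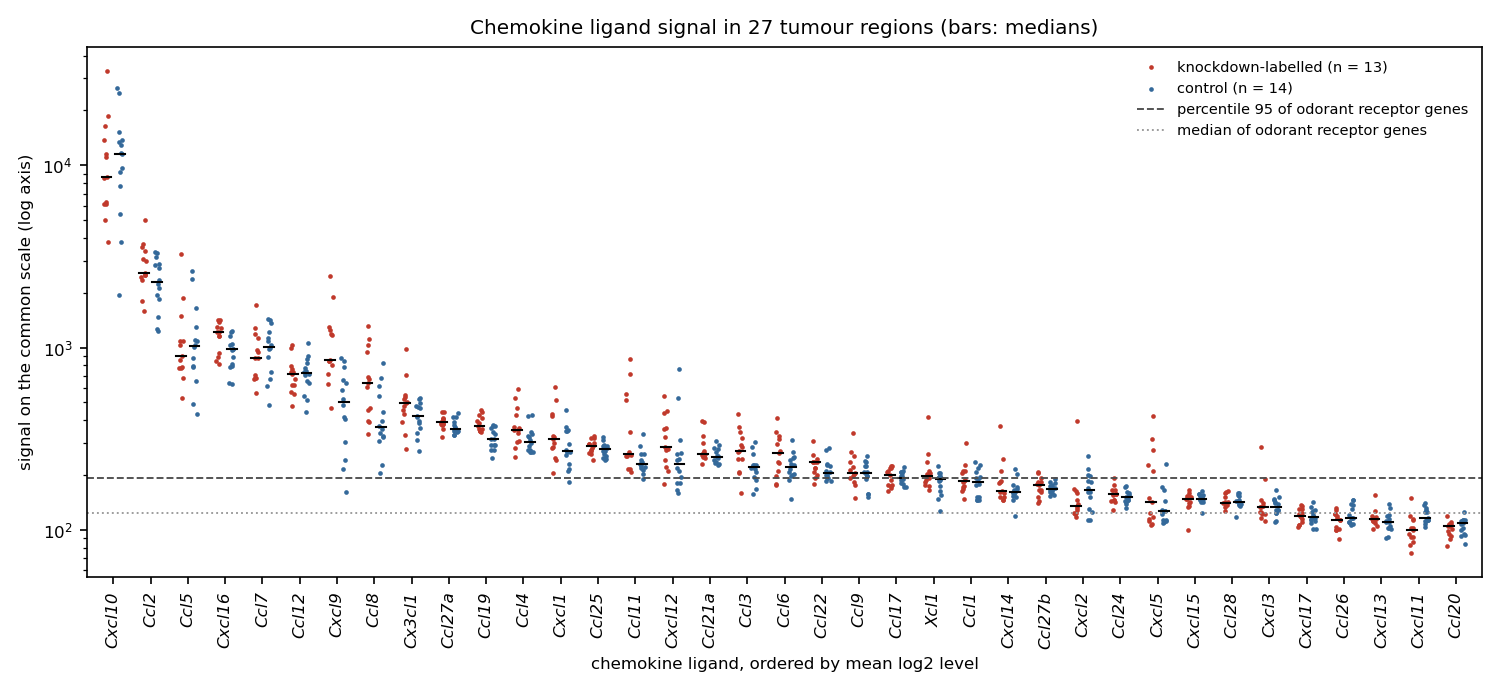
Signal on the common scale (log axis) of the 37 chemokine ligands, ordered by mean log2 level, with 1 point per region, knockdown-labelled regions left of control regions and bars at the medians. Cxcl10 stands highest, 23 ligands have a mean above the dashed odorant receptor line at 193, and the last 14 do not.

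Cxcl10 gave by far the strongest ligand reading, at rank 138 of 19615 targets by mean log2 signal, followed by Ccl2 at rank 831, Ccl5 at 2904 and Cxcl16 at 2910. These ranks are of probe signal, and probes differ in how well they bind, so the order of neighbours such as Ccl5 (mean log2 signal 10.00) and Cxcl16 (9.99) carries no weight. The 14 ligands under the odorant receptor level included Ccl20, Cxcl11, Cxcl13 (the B cell attractant), Ccl26 and Cxcl17. Of these 14, Ccl1 passed the region's own odorant receptor percentile in 10 of 27 regions, Cxcl5 in 5, Cxcl2 and Cxcl14 in 4 each, and Cxcl3 and Ccl27b in 1 each. The other 8 passed it in 0 regions, so their transcripts were not detectable by these probes above unspecific signal.

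On the common scale 3 of the 37 ligands (8.11%) passed limma's test at an adjusted p under 0.05, where 3.89% of all targets did so. Ccl19 and Cxcl9 were higher in knockdown-labelled regions (5.41% of ligands, against 1.31% of all targets), and Cxcl11 was lower (2.70% against 2.58%). The median log2 fold change over the 37 ligands was 0.08, in a range of -0.25 to 1.15, and 29 of 37 were positive (78.4%), against a median of -0.04 and 34.0% positive over all targets. In an exact rank-sum test 2 ligands passed (5.41%, against 3.10% of all targets), the same Ccl19 and Cxcl9 as higher (against 0.964%), and 0 as lower (against 2.14%). In the values as deposited 25 ligands passed (67.6%, against 98.1% of all targets), 24 of them lower (against 98.0%) and 1, Cxcl9, higher (against 0.0714%), where the median over all targets was -0.54. At an unadjusted p under 0.05 on the common scale there were 8 ligands (21.6%), a share near the 20.8% of all targets. The positive count was between 26 and 33 under every other scaling, setting or left-out region that tested all 37 ligands, except in the values as deposited, where it was 2.

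**Figure D2:**
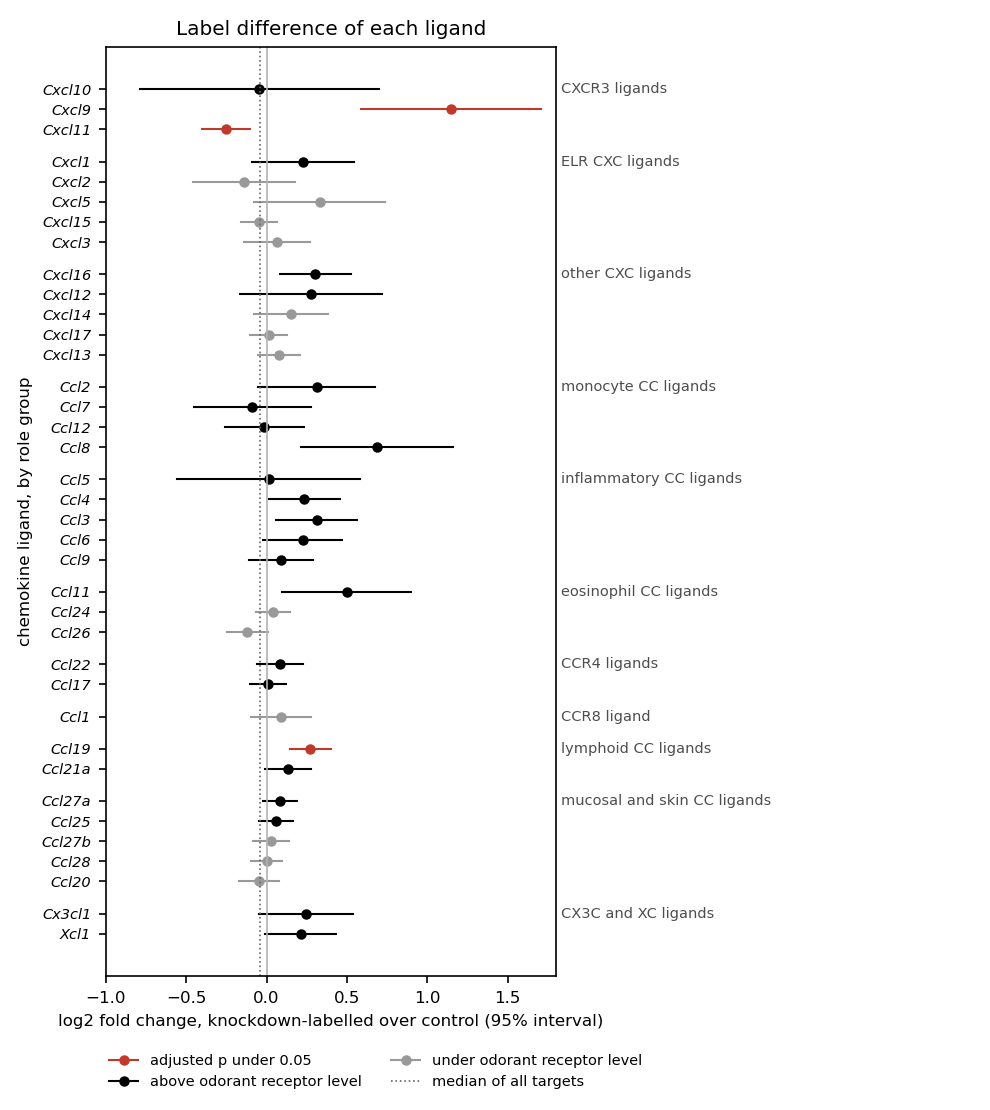
Log2 fold change of each ligand, knockdown-labelled over control, with its 95% interval (limma), arranged by role; the dotted line is the median of all targets. Cxcl9 at 1.15 and Ccl19 at 0.27 stand to the right of 0, and Cxcl11 at -0.25 to the left, while intervals of most other ligands include 0.

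Cxcl9, which calls CXCR3-bearing T cells, had the largest label difference of any ligand. Its signal was 467, 859 and 2457 in the lowest, median and highest knockdown-labelled region, against 162, 502 and 876 in control regions. The groups overlapped, but 12 of 13 knockdown-labelled regions lay above the control median and 6 above the highest control region. The log2 fold change was 1.15 (SE 0.27, 95% interval 0.59 to 1.71, limma adjusted p = 0.0205), and Cxcl9 was also higher in the values as deposited (0.64, adjusted p = 0.0362). With the log2 total of a region as a covariate it was 1.34 and no longer passed (adjusted p = 0.0799), a fit in which 23 targets were called higher and 4 lower in all.

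Cxcl10, the neighbouring gene with the same receptor, gave no such difference. Its signal was 3807, 8668 and 32891 in knockdown-labelled regions, against 1941, 11594 and 26461 in control regions. The groups overlapped almost entirely, with 5 of 13 knockdown-labelled regions above the control median. The log2 fold change was -0.05 (SE 0.36, adjusted p = 0.964), in an interval of -0.79 to 0.70 that leaves room for sizeable changes either way. The spread between regions was the main feature of this gene, since its log2 SD was 0.87 in knockdown-labelled and 1.01 in control regions, where the median odorant receptor gene had 0.16 and 0.13.

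Because both genes are measured in the same region, their ratio does not depend on scaling. This comparison was chosen after the values were seen. Cxcl9 signal was 4.22%, 10.1% and 22.3% of Cxcl10 signal in the lowest, median and highest knockdown-labelled region, against 1.88%, 4.47% and 8.93% in control regions. In 9 of 13 knockdown-labelled regions the ratio was above the highest control region. The log2 ratio averaged -3.25 ± 0.64 in knockdown-labelled regions (SD, n = 13) and -4.45 ± 0.66 in control regions (SD, n = 14), a difference of 1.19 that is given as a description, with no test. Leaving out each region in turn gave 1.10 to 1.30, and subtracting the odorant receptor level gave 1.62.

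**Figure D3:**
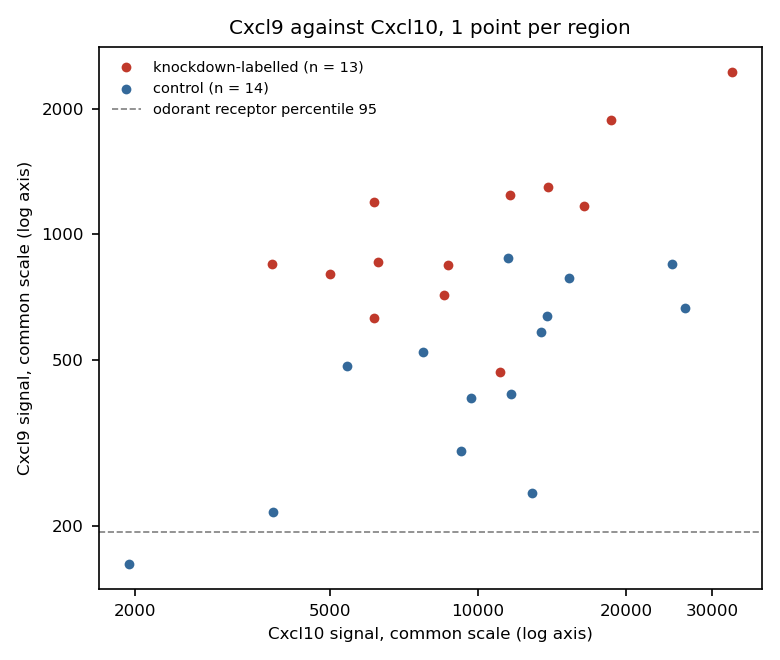
Cxcl9 signal against Cxcl10 signal on the common scale (both axes log), 1 point per region. At a like Cxcl10 level the knockdown-labelled points lie mostly above the control points, and region 19 is the point at the top right, with a Cxcl10 signal of 32891 and a Cxcl9 signal of 2457.

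Cxcl11, the third CXCR3 ligand, is annotated as a polymorphic pseudogene in the GENCODE annotation of the reference strain, meaning a gene that codes for protein in some strains only. Its signal was 75.1, 100.3 and 149 in knockdown-labelled regions, against 104, 116 and 139.8 in control regions, and 9 of 13 knockdown-labelled regions lay under the lowest control region. No region of either label was above its own odorant receptor percentile. Its log2 fold change was -0.25 (SE 0.07, adjusted p = 0.0454), a call between readings that are both at background, and 19 of 27 fits with a region left out did not keep it. With a common upper quartile the value was -0.21 (adjusted p = 0.246).

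Ccl19, a ligand of CCR7, showed a small and even difference. Its signal was 343, 372 and 455 in knockdown-labelled regions, against 247, 316 and 375 in control regions. All 13 knockdown-labelled regions lay above the control median and 6 above the highest control region. The log2 fold change was 0.27 (SE 0.06, interval 0.14 to 0.40, adjusted p = 0.0154), and it turned to -0.23 in the values as deposited (adjusted p = 0.00746). With the log2 total as a covariate it was 0.19 (adjusted p = 0.263). Ccl19 has near-identical copies, and 57.2% of the 35-base windows of its annotated transcripts also occur in transcripts of other genes, such as Gm2564 and Ccl19-ps1. The position of its probe was not used here, so this reading may hold several loci.

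Ccl21a, the other CCR7 ligand, shares 78.6% of its windows with copies and had a log2 fold change of 0.13 that did not pass (adjusted p = 0.283). Ccr7 itself was above the odorant receptor level at a mean log2 signal of 7.78, without a call (log2 fold change 0.08, adjusted p = 0.671).

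**Figure D4:**
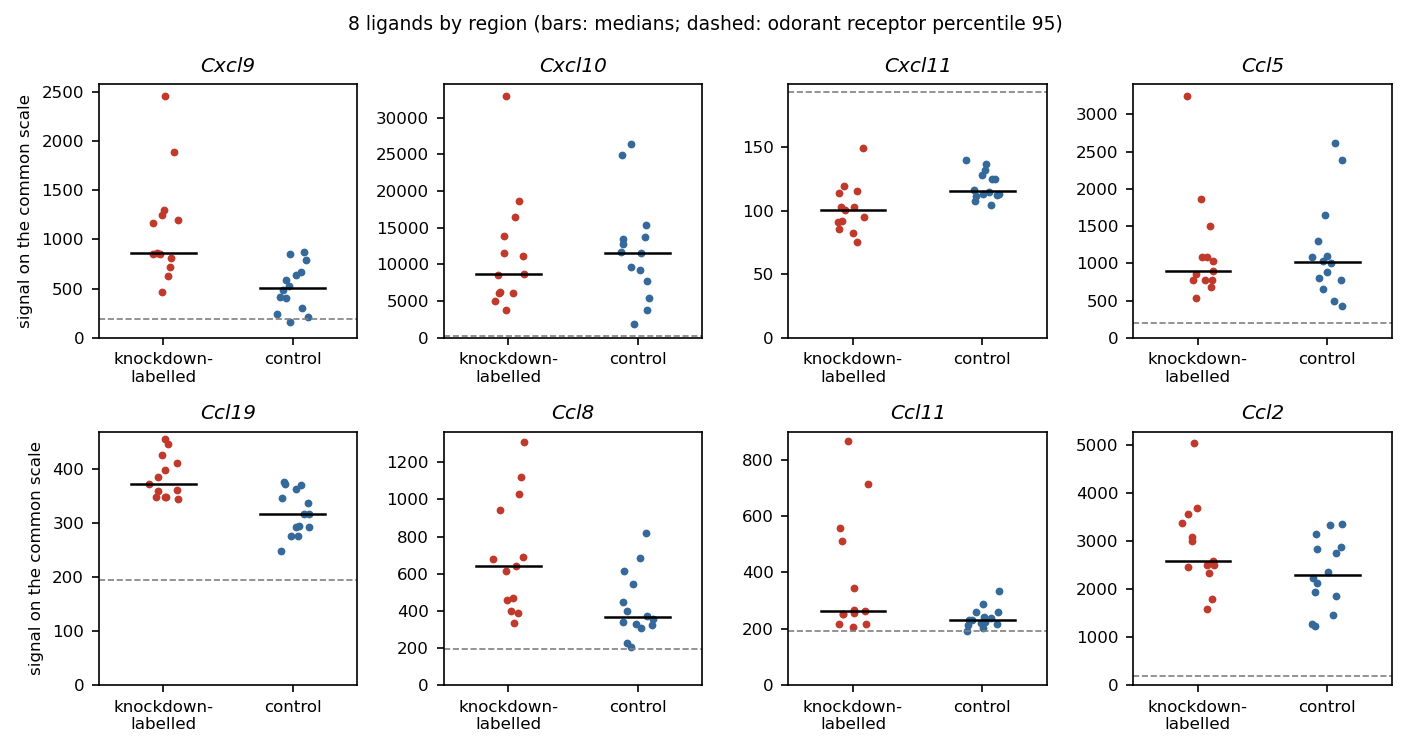
Signal on the common scale of 8 ligands in each region, knockdown-labelled left and control right, with bars at the medians, a dashed line at the odorant receptor percentile 95 and vertical axes that start at 0. Cxcl9 and Ccl19 sit higher in knockdown-labelled regions, Cxcl10 and Ccl5 overlap, Cxcl11 lies wholly under the dashed line, and Ccl11 has 4 high points among the knockdown-labelled regions.

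The monocyte ligands (Ccl2, Ccl7, Ccl8 and Ccl12) were all above background. Limma's adjusted test was passed by 0 of 4, against 3.89% of all targets, a share at which 0 of 4 says little. Ccl8 alone had an unadjusted p under 0.05, as did 20.8% of all targets, and the rank-sum test called none. Ccl2 signal was 1581, 2578 and 5029 in knockdown-labelled regions, against 1232, 2286 and 3349 in control regions, with a log2 fold change of 0.31 (SE 0.18, adjusted p = 0.324). Ccl8 signal was 335, 639 and 1309 in knockdown-labelled regions, against 205, 365 and 820.3 in control regions. For Ccl8, 12 of 13 knockdown-labelled regions were above the control median, and the log2 fold change was 0.69 (SE 0.23, interval 0.21 to 1.16, adjusted p = 0.0875). With the log2 total as a covariate it was 0.31 (adjusted p = 0.671) and in the values as deposited 0.18 (adjusted p = 0.461), and of 27 fits with a region left out 1 passed, that without control region 13 (0.77, adjusted p = 0.0487).

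Ccl7 and Ccl12 lie beside Ccl2 in a gene cluster on chromosome 11, and a difference in fold change between these genes was not tested. The sign of the Ccl12 fold change depended on the scaling, with 0.03 at a common upper quartile. Ccl7 signal was 563, 877 and 1715 in knockdown-labelled regions, against 484, 1012 and 1436 in control regions (log2 fold change -0.09, SE 0.18, adjusted p = 0.824). Ccl12 signal was 477, 717 and 1039 in knockdown-labelled regions, against 442, 727 and 1057 in control regions (-0.01, SE 0.12, adjusted p = 0.968). The groups overlapped for both genes, and no transcript window of Ccl2, Ccl7, Ccl8 or Ccl12 was shared with another gene.

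The inflammatory CC ligands, which call monocytes, macrophages and effector T cells, had 5 of 5 members above background. Limma's adjusted test was passed by 0 of 5, against 3.89% of all targets. Ccl3 and Ccl4 had an unadjusted p under 0.05, as did 20.8% of all targets. Ccl5 signal was 528, 898 and 3250.2 in knockdown-labelled regions, against 432, 1021 and 2619.6 in control regions, with a log2 fold change of 0.01 (SE 0.28, adjusted p = 0.984). Like Cxcl10, Ccl5 varied widely within each label, over 6.16-fold in knockdown-labelled and 6.06-fold in control regions. Ccl4 signal was 251, 354 and 590.2 in knockdown-labelled regions, against 266, 305 and 429 in control regions (0.24, SE 0.11, adjusted p = 0.211). Ccl3 signal was 159, 270.0 and 432 in knockdown-labelled regions, against 157, 221 and 305 in control regions (0.31, SE 0.12, adjusted p = 0.144), with 0.13 under the log2 total as a covariate (adjusted p = 0.770), and it passed in 1 of 27 fits with a region left out, that without knockdown-labelled region 21 (0.38, adjusted p = 0.0442). The other members, Ccl6 and Ccl9, had log2 fold changes of 0.22 and 0.09 and did not pass.

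Cxcl16, a membrane-bound ligand that holds CXCR6-bearing T cells, had a signal of 808, 1217 and 1419 in knockdown-labelled regions, against 632, 977 and 1235 in control regions. In 9 of 13 knockdown-labelled regions it was above the control median, and in 5 above the highest control region. Its log2 fold change was 0.30 (SE 0.11, interval 0.08 to 0.52, adjusted p = 0.102). Its receptor Cxcr6 was called higher (0.25, SE 0.06, adjusted p = 0.0205), at a mean log2 signal of 7.31 that is under the odorant receptor level.

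Ccl11, which calls eosinophils through CCR3, had its highest readings in a few knockdown-labelled regions. Above the control median lay 10 of 13 regions of that label. Its signal was 207, 262 and 866 in knockdown-labelled regions, against 191, 231 and 335 in control regions. The knockdown-labelled regions 26, 25, 16 and 19 held 866, 714, 559 and 513, region 17 held 344, and the other 8 of that label lay within the range of control regions. This gave a log2 fold change of 0.50 (SE 0.20, adjusted p = 0.144). Ccl24 and Ccl26, of which Ccl26 is known as an eosinophil ligand from human, were under the odorant receptor level, and Ccl26 signal was 88.8, 114 and 132 in knockdown-labelled regions, against 107, 116 and 146 in control regions (-0.12, SE 0.06, adjusted p = 0.278).

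Cx3cl1 (fractalkine), a membrane-anchored ligand of CX3CR1, had a signal of 277, 497 and 984 in knockdown-labelled regions, against 273, 419.7 and 528 in control regions (log2 fold change 0.25, SE 0.14, adjusted p = 0.338). Xcl1, made by T and NK cells, had 165, 198 and 417 in knockdown-labelled regions, against 127, 189 and 225 in control regions (0.21, SE 0.11, adjusted p = 0.259). The groups overlapped for both. For Cx3cl1, 4 knockdown-labelled regions lay above the highest control region, with the highest reading in region 24 and 706 in region 23. For Xcl1, 3 did so, with the highest reading in region 23. Ccl27a, known from skin, had 325, 391 and 443 in knockdown-labelled regions, against 331, 358 and 438 in control regions (0.08, SE 0.05, adjusted p = 0.366). Ccl27a shares 54.0% of its windows, and Ccl27b 100% of its windows, with other genes.

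The 20 other ligands had log2 fold changes of -0.14 to 0.33 and limma adjusted p of 0.283 or more. Among them, the neutrophil ligands had 1 of 5 members above background (Cxcl1). Limma's test was passed by 0 of 5, adjusted (3.89% of all targets) or unadjusted (20.8%). The summed signal of these 5 was 699.7 to 1862 in knockdown-labelled regions and 693 to 1147 in control regions. Cxcl1 signal was 204, 314 and 608 in knockdown-labelled regions, against 184, 271 and 453 in control regions (0.23, SE 0.16, adjusted p = 0.421). Cxcl12, which holds CXCR4-bearing cells in place, had a log2 fold change of 0.28 (SE 0.22, adjusted p = 0.494), and its highest reading of all was 764 in control region 13. The CCR4 ligands Ccl17 and Ccl22 (0.01 and 0.08), the CCR8 ligand Ccl1 (0.09) and the mucosal ligands Ccl20, Ccl25 and Ccl28 (-0.05, 0.06 and 0.00) had no call.

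Some ligands varied together from region to region, though most pairs did not. With each label's mean removed, the 253 pairs of the 23 ligands above background had a median Pearson's r of 0.14 over 27 regions. This was near the 0.15 of odorant receptor pairs and lower than the 0.23 of pairs of the ligands under background. Of the 253 pairs 7 passed 0.7, against 1 of 91 pairs of the ligands under background and 537 of 403651 odorant receptor pairs. All values of this kind share regions, mice and scaling, and they and the groupings drawn from them are descriptions, with no test. Cxcl10 and Ccl5, on different chromosomes, had the closest relation over both labels (r = 0.87, with 0.85 in knockdown-labelled and 0.89 in control regions). Cxcl10 also varied with Cxcl9 (0.72) and Cxcl1 (0.71). Some pairs had opposite signs in the 2 labels, which a value over both labels hides. Ccl2 and Cx3cl1 had -0.90 in knockdown-labelled and 0.78 in control regions (-0.17 over both). Cxcl16 and Cx3cl1 had -0.62 and 0.64 (-0.08 over both).

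Ccl7 and Ccl12, 54.3 kb apart, followed with r = 0.86, and Ccl3 and Ccl4, 13.2 kb apart, with 0.75. Ccl2 varied with Cxcl16 (0.74), which lies far away on the same chromosome, and less with its neighbour Ccl7 (0.65). A further group held Ccl19, Cxcl12 and Ccl8, with 0.74 for Ccl19 and Cxcl12 and 0.68 for Ccl8 and Cxcl12. Ccl25 ran against Ccl6 (-0.55) and Cx3cl1 (-0.50).

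**Figure D5:**
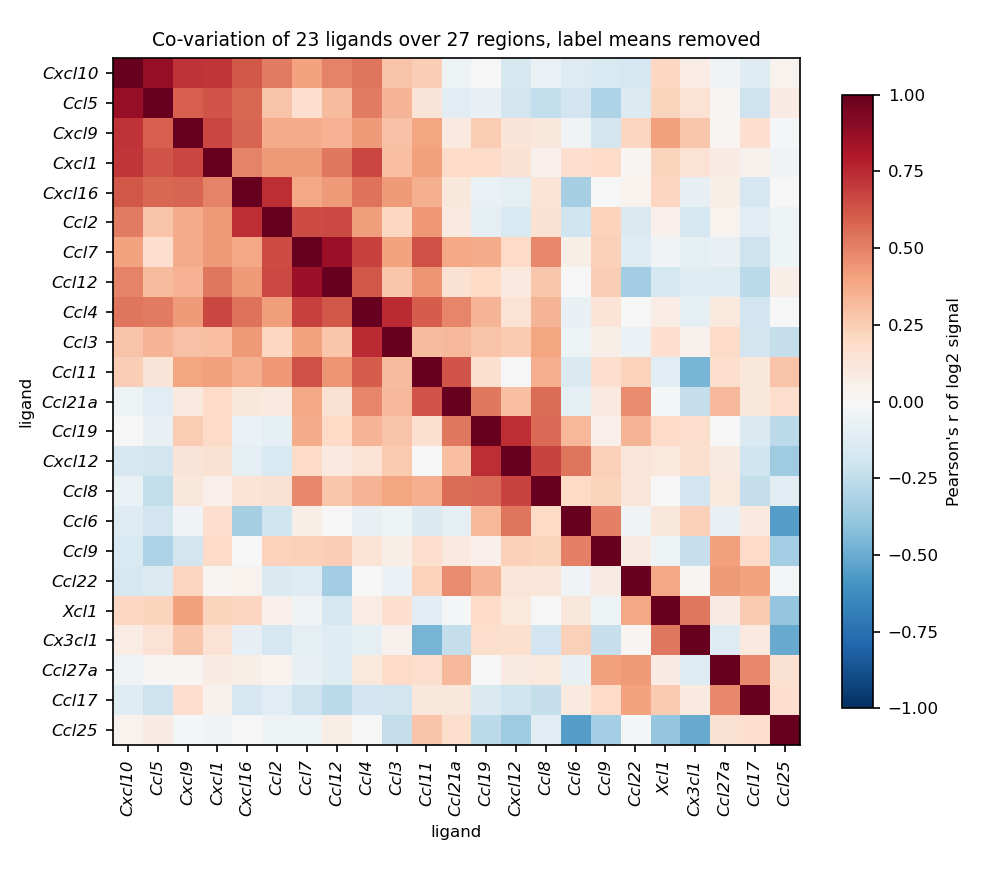
Pearson's r of log2 signal between the 23 ligands above the odorant receptor level over 27 regions, each label's mean removed (red positive, blue negative, ordered by eye). A block of Cxcl10, Ccl5, Cxcl9 and Cxcl1 and a block around Ccl7 and Ccl12 show as red squares, and Ccl25 is mostly blue or pale.

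Single regions carried much of the high end of the first group. Region 19, of the knockdown label, held the highest signal of Cxcl10 (32891), Ccl5 (3250.2), Cxcl9 (2457), Cxcl1 (608), Cxcl2 (398), Cxcl3 (287) and Cxcl5 (421). Control regions 8 and 10 were next for Cxcl10, at 26461 and 24889.8, while their Cxcl9 signals were 666 and 849. Without region 19 the r of Cxcl10 was 0.85 with Ccl5, 0.68 with Cxcl9 and 0.66 with Cxcl1.

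Of the 18 chemokine receptors, 8 were above the odorant receptor level, and the median log2 fold change was 0.05. Cx3cr1 (0.06, adjusted p = 0.894) and Cxcr2 (0.08, adjusted p = 0.444) did not pass. Cxcr3, named here because its ligands led the results, was under the odorant receptor level, at a mean log2 signal of 7.51 (0.05, adjusted p = 0.735).

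Of the 5 atypical receptors, which bind chemokines without calling cells, 0 passed limma's adjusted test, against 3.89% of all targets. Ackr1 alone had an unadjusted p under 0.05, as did 20.8% of all targets. The values were -0.17 for Ackr1, 0.10 for Ackr3, -0.05 for Ackr4 and -0.03 for Ccrl2. The platelet ligands Pf4 and Ppbp, CXC chemokines by structure whose symbols fall outside the rule, had 0.06 and -0.02 and no call.

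The pathways known to switch on these ligands were set beside them. Of 9 genes of interferon gamma signalling 1 was called higher and 0 lower (median log2 fold change 0.13), against 1.31% and 2.58% of all targets. The call was Irf8, a transcription factor of myeloid cells. Irf8 signal was 445, 626 and 715 in knockdown-labelled regions, against 317, 419.5 and 579.5 in control regions (0.50, SE 0.09, adjusted p = 0.00349). Irf1, a transcription factor that interferon gamma induces, had 0.39 (adjusted p = 0.0629), and Socs1 0.35 (adjusted p = 0.0755). Ifng itself was under the odorant receptor level. Over 27 regions the mean of the 7 genes above that level varied with Cxcl10 (r = 0.81) and Cxcl9 (0.77), and hardly with Ccl19 (0.10) or Ccl8 (0.09).

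Of 15 genes of the NF-kB pathway 1 was called higher and 0 lower (median -0.03), against 1.31% and 2.58% of all targets. The gene called was Tnf, at 251, 344 and 388 in knockdown-labelled regions, against 226, 261 and 323 in control regions (0.30, SE 0.07, limma adjusted p = 0.0124). Ikbkb (-0.15), Rela (-0.14), Nfkb2 (-0.10) and Nfkb1 (-0.03) did not pass. The mean of the 12 genes above background varied with Cxcl1 (r = 0.74) and Cxcl10 (0.62).

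Markers of other cells moved with the labels beside Cxcl9 and Ccl19, and their part in those results was not tested. Of 13 T or NK markers 5 were called higher (Cd3d, Cd3e, Trac, Nkg7 and Prf1), against 1.31% of all targets. The summed signal of the 13 ran from 2360.2 to 4074 in knockdown-labelled regions and from 1855 to 3020.1 in control regions. Only 5 of the 13 were above the odorant receptor level, and Cd3d and Prf1 among the called, with Cd4, Cd8b1, Gzma, Gzmb, Ncr1 and Klrb1c, were under it. The mean of the 5 above it had r = 0.63 with Xcl1 in knockdown-labelled and 0.71 in control regions, and 0.76 and 0.38 with Ccl19. With Cxcl9 it had 0.05 in knockdown-labelled and 0.73 in control regions. Of 10 hepatocyte markers 5 were called higher (Alb, Apoa1, Apoa2, Ttr and Cyp2e1), against 1.31% of all targets. Sums over the 10 were 1442 to 10889 in knockdown-labelled and 1460.1 to 4722 in control regions. Ttr and Cyp2e1 were under the odorant receptor level, and the mean of the 5 markers above it (Alb, Apoa1, Apoa2, Fgb and Trf) had r = 0.07 with Cxcl9 in knockdown-labelled and 0.24 in control regions, and 0.33 and -0.28 with Ccl19.

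Of 11 macrophage markers 1 was called higher (Csf1r), against 1.31% of all targets. Sums over the 11 were 10926 to 33134 in knockdown-labelled and 9645 to 19714 in control regions. Clec4f, Vsig4 and Marco, known from liver macrophages, were under the odorant receptor level. No marker of fibroblasts (9), neutrophils (7), dendritic cells (7), B cells (5), endothelium (7) or tumour epithelium (6) passed limma's adjusted test, against 3.89% of all targets. Csf3r, Elane, Retnlg, Clec9a and Krt19 had an unadjusted p under 0.05, as did 20.8% of all targets. Fibroblast sums were 17532 to 34374 in knockdown-labelled and 14424 to 44537 in control regions, and the fibroblast mean had r = 0.53 with Ccl7 in knockdown-labelled and 0.60 in control regions, 0.20 and 0.68 with Cxcl12, and 0.13 and 0.66 with Ccl19. The log2 totals of regions had r = -0.72 with Ccl8 in knockdown-labelled and -0.37 in control regions, -0.78 and -0.02 with Ccl3, -0.30 and -0.60 with Ccl19, and 0.28 and 0.22 with Cxcl9.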

How the data were processed

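Probe readings of 27 tumour segments were used, 13 labelled CMTM6 knockdown and 14 control, grouped by the sample labels. Staining for pan-cytokeratin and desmin guided the choice of areas, and the authors used the GeoMx DSP Analysis Suite, with no version or target filter given in the sources used here. The deposited table holds a normalized signal for each target and region. Their upper quartile was 539 in every knockdown-labelled and 788 in every control region (SD 0.959 and 1.45), so each label had been normalized alone. At least 99.96% of a region's values were whole multiples of 1 step (tolerance 0.01), but the lowest reading was 10 to 126 steps, so no count model was run. No region repeated another (169 pairs, smallest chi-square 2.26 per degree of freedom).

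The regions were scaled to 1 common median of all targets, and log2(signal + 1) was tested with limma 3.58.1 with its trend and robust options (two-sided, adjusted by Benjamini-Hochberg across 19615 targets, threshold 0.05). Fold changes are on the log2(signal + 1) scale with no background subtracted, which can understate changes of low genes. The median log2 fold change over the 37 ligands was 0.08, with 0.08 at pseudocount 10 and 0.28 after background subtraction. The members and lists were chosen with earlier results of these data known. Values were given for ligands past the test, the 12 highest by mean level and the 4 others with the smallest p, and outside this rule for Cxcl1. For the pathway lists, genes past the test, 3 with the smallest p and 2 with the highest mean were named, and others named were chosen after their values were seen. Alternatives were other scalings, pseudocount 10, a filter at the odorant receptor level, background subtraction, limma without its settings, an exact rank-sum test, the log2 total as a covariate, and each region left out. Correlations without region 19 and the ratio of Cxcl9 to Cxcl10 were added after the data were seen. Gene positions and types came from GENCODE vM21 (GRCm38) by symbol, and promoters from RefSeq, which matched 26 of 37 ligands. Results for some receptor and pathway genes are not reported here.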

Additional observations from a re-analysis of the deposited data

How the results depend on the processing

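No paired analysis was possible because regions are not tied to mice and the labels give the groups no shared number. The 2 higher ligands became 1 in the values as deposited (Cxcl9) and 0 with the log2 total as a covariate, and 2 to 3 with each region left out in turn. The 1 lower ligand became 24 in the values as deposited, where 98.0% of all targets were lower and 0.0714% higher, and 0 with a common upper quartile, a common total, TMM factors, quantile normalization, only targets above the odorant receptor level, background subtraction, limma without trend and robust settings, the exact rank-sum test or the log2 total as a covariate, and 0 to 1 with each region left out. With the filter Cxcl11 was not among the 23 ligands tested. The rank-sum test called 3.10% of all targets. In the values as deposited 2 of 37 ligands were positive (Cxcl9 and Ccl8), against 29 on the common scale, and of the ligands given by values Ccl27a (-0.42), Ccl19 (-0.23) and Xcl1 (-0.29) turned negative and passed the test. The number of ligands above the odorant receptor level was 23, with 16 at percentile 99, 24 at the median plus 3 median absolute deviations, 22 when counted in at least 14 regions singly, 22 from control regions alone, 22 from knockdown-labelled regions alone, and 21 to 23 with a region left out. Cxcl9 and Ccl19 passed in 27 of 27 fits with a region left out, at 1.03 to 1.24 and 0.24 to 0.29. A count-based test was planned for whole reads and was not run. The cause of these changes was not tested.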
